A study of Homo sapiens with 18 samples.

Results

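The genes described here encode the machinery that builds ribosomes: RNA polymerase I and its factors, the small nucleolar ribonucleoproteins (snoRNPs), and the assembly factors of the small and the large ribosomal subunit. A list of 56 gene symbols was matched by Ensembl ID to the 40184 rows of the deposited table, and all 56 had a row. Of these, 55 had at least 1 CPM (reads per 1e6 reads of the library, after the authors' scaling) in at least 3 libraries of a line and were tested. The exception was NOP2, an rRNA methyltransferase of the large subunit, which stood between 0.304 and 1.2 CPM in the 18 libraries. In the GENCODE 29 annotation 54.4% of the exon bases of NOP2 lie under a second gene on the same strand, and how reads shared by such genes were counted is not given in the sources used here. Of the 56 genes, 11 share exon bases with a gene on the same strand and 20 with one on the opposite strand.

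Expression was measured by sequencing of polyadenylated RNA in 18 cultures. The 3 cell lines come from human acute myeloid leukaemia. The labels give Molm-14 and MV4-11 as FLT3-ITD, an activating internal tandem duplication of the receptor tyrosine kinase FLT3, and SKNO-1 is labelled KIT N822K, a mutation of the receptor tyrosine kinase KIT. Each line was given the vehicle DMSO or 500 nM RMC-4550 for 24 h, with 3 libraries labelled as biological replicates in each of the 6 groups. RMC-4550 is an allosteric inhibitor of the phosphatase SHP2 (PTPN11), which couples receptor tyrosine kinases to RAS and MAP kinase signalling. SKNO-1 alone was grown with 10 ng/mL of human GM-CSF, in both of its groups, so genotype, line and growth factor cannot be told apart. The labels do not say whether the replicates came from separate thaws, so p-values measure the spread between these cultures.

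Ribosome assembly begins in the nucleolus, where RNA polymerase I transcribes the genes of ribosomal RNA into 1 long precursor. Box C/D and box H/ACA snoRNPs guide methylation and pseudouridylation of that precursor, the small-subunit processome cleaves and folds its first part, and a separate set of factors matures the large subunit. The genes for these proteins are widely described as targets of the transcription factor MYC, which growth factor signalling induces, and they are among the genes that track cell growth in leukaemia cells.

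The libraries held 17434810 to 19959917 reads. In 4 of them over 10% of reads came from mitochondrially encoded genes: Molm-14 with RMC-4550 replicate 2 (15.0%), MV4-11 with DMSO replicates 1 (12.7%) and 3 (14.6%), and MV4-11 with RMC-4550 replicate 1 (10.5%). The other 14 held 5.07% to 7.02%. These 4 libraries stood apart, so results are given with and without them. The myeloid markers SPI1, CD33, CSF3R, CEBPA, RUNX1 and LYZ were above 1 CPM in all 18 libraries, whereas MPO was at 315 to 437 CPM in SKNO-1 and at 0.634 to 4.4 CPM in the other lines. The myeloid marker CEBPE ran from 0.256 to 13.8 CPM and reached 1 CPM in 12 libraries. RUNX1T1, the fusion partner of RUNX1 in SKNO-1, was at 10.9 to 14.4 CPM in that line and had at most 1 read elsewhere. Of the markers of other cell types reported here, COL1A1 (1.38 to 10.2 CPM) was above 1 CPM in all libraries, HBB reached 1 CPM in 1 library, and MS4A1, CD3E, CD3D and EPCAM never passed 2 reads. GATA1 had at most 11 reads and stayed under 1 CPM in all 18 libraries.

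Inhibition of SHP2 was followed by a broad fall of the ribosome biogenesis genes in Molm-14 and SKNO-1 and by few calls in MV4-11. In Molm-14, 52 of the 55 genes were called lower and 0 higher at an adjusted p under 0.05 (limma, Benjamini-Hochberg over all genes tested in the line), with a median log2 change of -0.86. In SKNO-1, 36 were called lower and 0 higher, with a median of -0.53. In MV4-11, 8 were called lower and 0 higher, with a median of -0.08. Among all genes tested, 25.2% were called lower and 21.5% higher in Molm-14, 16.2% and 10.8% in SKNO-1, and 8.03% and 5.85% in MV4-11, and the median log2 change of all genes was -0.06, -0.05 and -0.01 in these lines. Of the calls over all genes, 54% were lower in Molm-14, 60.0% in SKNO-1 and 57.8% in MV4-11, and with median-ratio scaling 49.2%, 49.6% and 48.1%, so the balance turned in each line. The values are shares of a library, so a change in total RNA per cell cannot be seen in them.

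The same counts without the 4 libraries rich in mitochondrial reads were 53 lower in Molm-14 and 53 lower in SKNO-1, where no library was removed and only the shared estimate of the spread changed. In MV4-11 they were 15 lower and 1 higher, and the median was -0.21. The share of all genes called lower in that fit was 32.1% in Molm-14, 32.1% in SKNO-1 and 19.6% in MV4-11, with 8.85% called higher in MV4-11. That fit had 1 DMSO library of MV4-11, whose spread was taken to be that of the other groups. The MV4-11 count also depended on single libraries: it was 4 without DMSO replicate 1, 3 without DMSO replicate 3, 4 without RMC-4550 replicate 2 and 2 without RMC-4550 replicate 3. Of the 8 genes called in MV4-11, LAS1L kept its call in 6 of 6 such fits, DDX21 in 4, TCOF1 and NOP10 in 3, RRN3 and UTP15 in 2, NIP7 in 1 and DKC1 in 0.

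The order of the libraries shows the same without a model. In Molm-14 every treated library lay below every DMSO library for 53 of the 55 genes (33.1% of all genes tested), and in SKNO-1 for 52 (35.4%). In MV4-11 this held for 13 genes (13.5%), and 1 gene, NOL6, had every treated library above. Summed over the 56 genes, the level in Molm-14 was 6838, 6869.5 and 6974 CPM with DMSO and 4324, 4132 and 4413 CPM with RMC-4550. In SKNO-1 it went from 4504, 4235 and 4334 CPM to 3469, 3141 and 3203 CPM. In MV4-11 the libraries stood at 4657, 5390.1 and 4949 CPM with DMSO and at 4562, 4658 and 4480.0 CPM with RMC-4550. The groups did not overlap in Molm-14 and SKNO-1, and overlapped in MV4-11, where treated replicate 2 lay level with DMSO replicate 1.

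**Figure D1:**
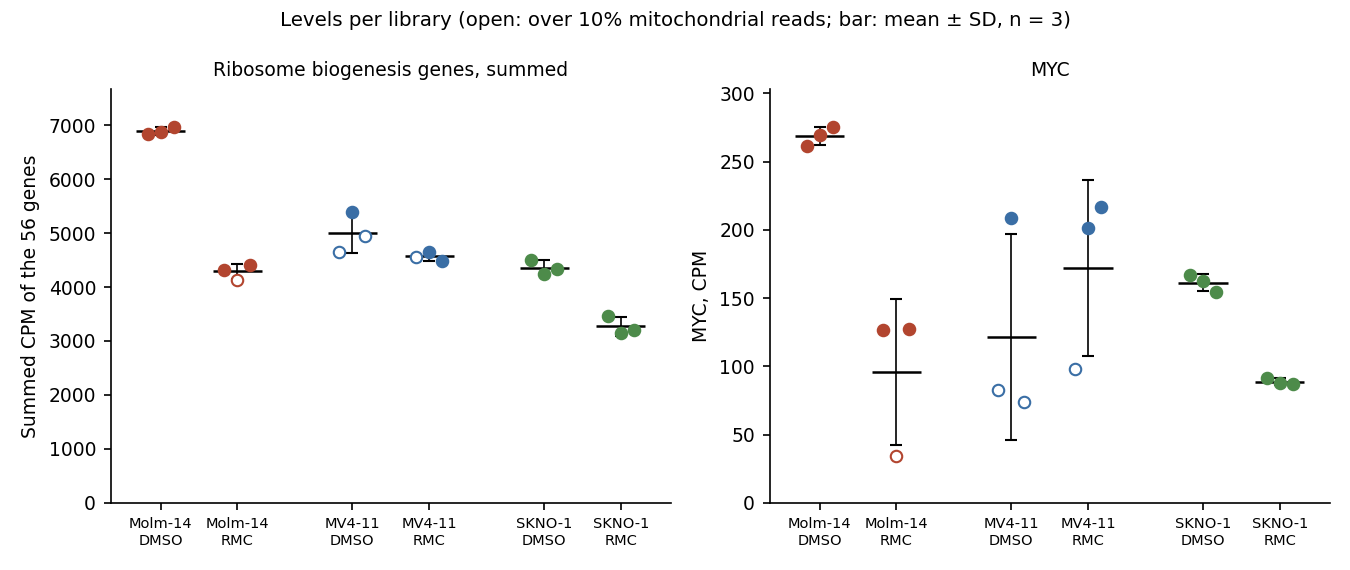
Summed level of the 56 ribosome biogenesis genes (left, CPM) and level of MYC (right, CPM) in each of the 18 libraries, by line and treatment. Points are libraries, open points hold over 10% mitochondrial reads, and bars give the mean ± SD of 3 libraries. The treated libraries of Molm-14 (4132 to 4413 CPM) lie below all its DMSO libraries (6838 to 6974 CPM), and the MYC level of MV4-11 is low in the 3 open points of either treatment.

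The lines also differed before treatment. With DMSO, 42 of the 55 genes were called higher in Molm-14 than in MV4-11 (median log2 difference 0.48, 30.0% of all genes called higher), and 44 were called lower in SKNO-1 than in Molm-14 (median -0.70, 33.3%). Between SKNO-1 and MV4-11 the genes were mixed, with 19 called lower in SKNO-1 (20.6% of all genes) and 4 higher (18.9%). Without the 4 libraries these counts were 39 (26.6%), 48 (43.7%), 28 (25.3%) and 1 (15.6%). Molm-14 with DMSO had the highest mean of the 3 lines for 50 of the 55 genes, against 40.1% of all genes in the fit.

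Treated Molm-14 stood below untreated MV4-11 for 52 of the 55 genes, with a median log2 difference of -0.34 against -0.03 for all genes. Among libraries under 10% mitochondrial reads alone, the difference was -0.47 and 48 of 55 genes were below, against the 1 DMSO library of MV4-11. Treated SKNO-1 lay below untreated MV4-11 for 48 genes (median -0.66, against -0.03 for all genes), and for 54 genes in the libraries under 10% (median -0.78). These are differences of group means, given as a description.

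**Figure D2:**
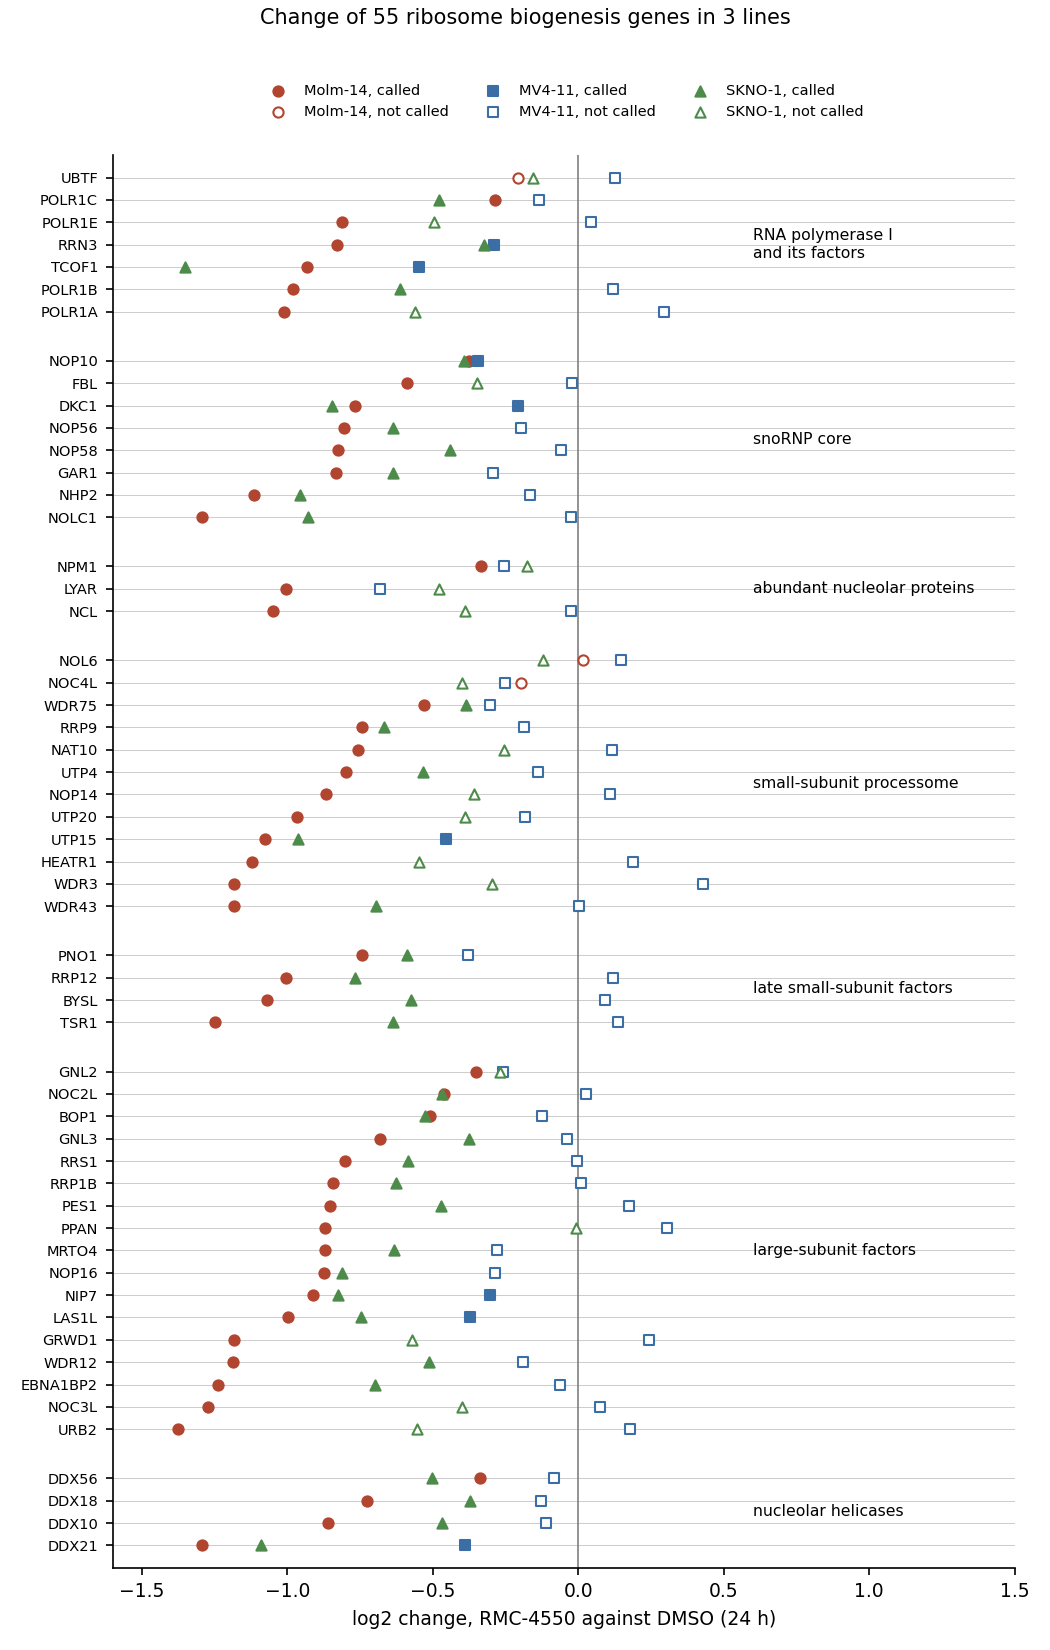
Log2 change with RMC-4550 against DMSO (x axis) for each of the 55 tested genes (y axis), grouped by role and ordered by the change in Molm-14. Circles are Molm-14, squares MV4-11 and triangles SKNO-1, and filled symbols passed the test. The circles run from -1.37 to 0.02 and the squares from -0.68 to 0.43.

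RNA polymerase I and the factors that bring it to ribosomal DNA were lower in Molm-14 for 6 of 7 genes (median log2 change -0.83), in SKNO-1 for 4 (median -0.50) and in MV4-11 for 2 (RRN3 and TCOF1, with a median over the 7 genes of 0.04). TCOF1 (treacle, chr5:150357697-150400293) couples polymerase I transcription to snoRNP-guided methylation. In SKNO-1 the DMSO libraries held 61.7, 56.1 and 60.6 CPM and the treated ones 23.2, 21.4 and 25.3 CPM. The log2 change was -1.35 ± 0.14 (SE here and below, adjusted p = 3.4e-06), the largest fall of the 55 genes in that line. In Molm-14 it went from 85.3, 85.6 and 86.1 CPM to 37.6, 61.3 and 39.3 CPM, where the middle value is the library rich in mitochondrial reads. The log2 change was -0.93 with that library and -1.16 without the 4 libraries. In MV4-11 TCOF1 went from 72.4, 66.9 and 79.9 CPM to 53.9, 47.7 and 48.2 CPM (log2 change -0.55 ± 0.14, adjusted p = 0.016). The treated libraries were below all DMSO libraries in each of the 3 lines.

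RRN3 (TIF-IA), the initiation factor through which growth signals reach polymerase I, fell in all 3 lines. In Molm-14 it stood at 58.5, 59.0 and 59.1 CPM with DMSO and 33.0, 32.3 and 34.0 CPM with RMC-4550 (log2 change -0.83 ± 0.084, adjusted p = 1.4e-06). In MV4-11 it stood at 46.2, 52.2 and 43.2 CPM and at 34.7, 42.4 and 38.7 CPM (log2 change -0.29, adjusted p = 0.031), and in SKNO-1 the log2 change was -0.32 (adjusted p = 0.0094). The fall was larger in Molm-14 than in MV4-11 (difference of log2 changes -0.54, adjusted p = 0.0069) and than in SKNO-1 (0.51, adjusted p = 0.012).

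The catalytic subunit gene POLR1A split by mitochondrial share. In MV4-11 it was at 33.5, 63.6 and 31.5 CPM with DMSO and at 37.0, 58.9 and 56.9 CPM with RMC-4550, and the 3 values under 40 CPM are the 3 libraries over 10%. In Molm-14 it fell from 59.8, 65.2 and 69.6 CPM to 39.7, 24.0 and 34.9 CPM (log2 change -1.01, adjusted p = 0.0026). In SKNO-1 it stood at 58.9, 52.6 and 53.7 CPM and then at 37.8, 39.4 and 34.8 CPM, which missed the call (adjusted p = 0.093) and passed it without the 4 libraries (adjusted p = 5.9e-06). UBTF (chr17:44205040-44221304), the architectural factor of active ribosomal DNA, was not called in any line, with log2 changes of -0.21 in Molm-14, -0.16 in SKNO-1 and 0.13 in MV4-11. Without the 4 libraries UBTF was called lower in SKNO-1 (-0.16, adjusted p = 0.018).

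Genes of the snoRNP core were called lower in 8 of 8 cases in Molm-14 (median -0.81), 7 of 8 in SKNO-1 (median -0.64) and 2 of 8 in MV4-11 (DKC1 and NOP10, median over the 8 genes -0.18). NOLC1 (Nopp140, chr10:102152389-102163870), a chaperone of both snoRNP classes, stood in Molm-14 at 196, 191 and 191 CPM and then at 87.5, 60.5 and 91.6 CPM (log2 change -1.29 ± 0.16, adjusted p = 9e-06). In SKNO-1 it went from 87.6, 84.9 and 83.2 CPM to 47.5, 43.6 and 43.4 CPM (-0.93, adjusted p = 0.00038). In MV4-11 it was at 86.8, 133 and 86.1 CPM and at 90.3, 108 and 95.9 CPM, with a log2 change of -0.03. Without the 4 libraries that change was -0.38 and was called (adjusted p = 0.0023).

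DKC1 (dyskerin, chrX:154762864-154777689), the pseudouridine synthase of H/ACA snoRNPs and a subunit of telomerase, had tight replicates in every group. It went from 203, 206 and 211 CPM to 121, 120.5 and 123 CPM in Molm-14 (log2 change -0.77) and from 71.0, 63.2 and 64.3 CPM to 38.1, 34.9 and 37.4 CPM in SKNO-1 (-0.84). In MV4-11 it went from 116, 119.7 and 119 CPM to 104, 104 and 98.5 CPM, a log2 change of -0.21 ± 0.065 (adjusted p = 0.045). The MV4-11 call is near the threshold and was lost when any 1 of the 6 libraries was left out (adjusted p 0.054 to 0.17), although the treated and DMSO libraries did not overlap. Its fall exceeded that of MV4-11 in Molm-14 (difference -0.56, adjusted p = 0.0011). The difference for SKNO-1 was -0.64 (adjusted p = 0.0015).

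NOP10, a small H/ACA protein, changed by nearly the same amount in the 3 lines, with log2 changes of -0.38 in Molm-14, -0.39 in SKNO-1 and -0.35 in MV4-11, all called. The differences between lines were -0.03 ± 0.13 (Molm-14 minus MV4-11) and -0.05 ± 0.13 (SKNO-1 minus MV4-11), each with its SE. With quantile normalization NOP10 was called in none of the lines. NHP2, its partner in H/ACA snoRNPs, fell by 1.11 on the log2 scale in Molm-14 (adjusted p = 2.2e-06). The fall in SKNO-1 was of like size (-0.95, adjusted p = 2e-05). In MV4-11 NHP2 was at -0.17 and not called in the main limma fit (adjusted p = 0.41). It was called there with the mitochondrial share as a covariate (-0.28, adjusted p = 0.018), and its change was -0.35 without the 4 libraries. In the main fit both differences from MV4-11 passed the test (-0.95 for Molm-14, adjusted p = 0.0018, and -0.79 for SKNO-1, adjusted p = 0.021). Both differences were -0.61 without the 4 libraries. FBL (fibrillarin), the methyltransferase of box C/D snoRNPs, stood at 358, 383 and 405 CPM and then at 288, 186 and 306 CPM in Molm-14 (-0.59, adjusted p = 0.0042), and at 294, 292 and 298 CPM and then at 236, 241 and 219 CPM in SKNO-1 (-0.35, adjusted p = 0.097, and 2.9e-05 without the 4 libraries).

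Of 3 genes classed as abundant nucleolar proteins (NCL, NPM1 and LYAR), 3 were called lower in Molm-14. In the fit of all libraries 0 were called in SKNO-1 and MV4-11. In SKNO-1 all 3 had a negative log2 change, and for NCL and LYAR (-0.48) every treated library lay below every DMSO library. LYAR stood at only 11.7 to 43.0 CPM in the 18 libraries. NCL, named here after its values were seen (nucleolin, chr2:231453531-231464484), an RNA chaperone of early processing, stood in Molm-14 at 828, 803 and 819 CPM and then at 439, 316 and 444 CPM (log2 change -1.05, adjusted p = 2.5e-05). In SKNO-1 it stood at 604, 529.8 and 539 CPM and at 495, 383 and 405 CPM (-0.39, adjusted p = 0.053), and the response differed between these lines (0.66, adjusted p = 0.047). NPM1 (nucleophosmin, chr5:171387116-171410900), a histone and ribosomal protein chaperone that is often mutated in acute myeloid leukaemia, was the highest of the 55 genes per kilobase of transcript. It went from 1609, 1584 and 1567 CPM to 1190.4, 1329.5 and 1263 CPM in Molm-14 (-0.33 ± 0.099, adjusted p = 0.012). The change was -0.26 for MV4-11 (adjusted p = 0.1) and -0.18 for SKNO-1 (adjusted p = 0.21), and both passed without the 4 libraries (adjusted p = 0.023 and 0.024). GENCODE 29 names 45 pseudogenes after NPM1, so reads may be split among copies.

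**Figure D3:**
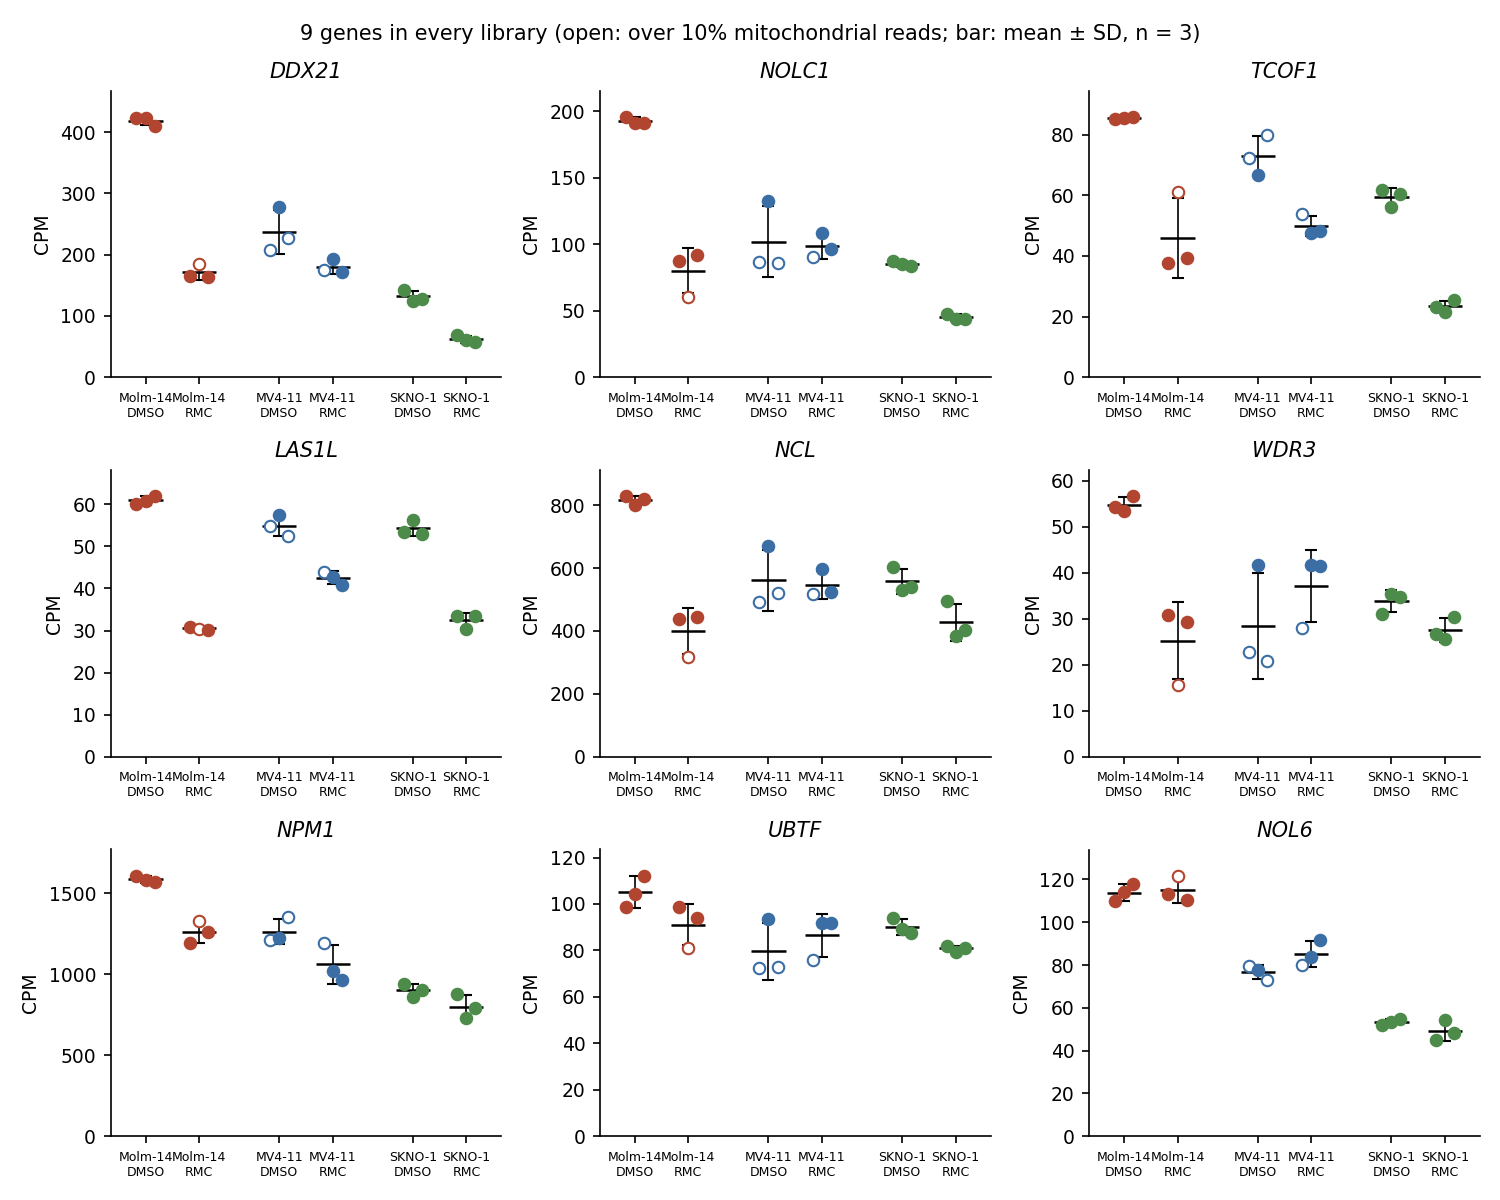
Level (CPM, y axis) of 9 genes in every library, by line and treatment (x axis). Points are libraries, open points hold over 10% mitochondrial reads, and bars give the mean ± SD of 3 libraries. DDX21, TCOF1 and LAS1L are lower in every treated library of all 3 lines, while WDR3 in MV4-11 is lower in the open points of either treatment.

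Genes of the small-subunit processome were called lower for 10 of 12 in Molm-14 (median -0.83), 5 in SKNO-1 (median -0.39) and 1 in MV4-11 (median -0.07). UTP15, a subunit of the tUTP complex that joins processing to transcription, was the MV4-11 call. It stood at 11.6, 13.3 and 12.6 CPM with DMSO and at 9.88, 8.1 and 9.44 CPM with RMC-4550 there (log2 change -0.45, adjusted p = 0.03), and fell by 1.08 in Molm-14 and by 0.96 in SKNO-1. WDR3, a beta-propeller subunit, showed the largest difference between Molm-14 and MV4-11 of the members with all libraries in the fit. It went from 54.3, 53.4 and 56.7 CPM to 30.8, 15.6 and 29.3 CPM in Molm-14, and stood at 22.8, 41.7 and 20.9 CPM and then at 28.0, 41.8 and 41.4 CPM in MV4-11. The difference of log2 changes was -1.61 ± 0.36 (adjusted p = 0.0074). The low MV4-11 values were again the 3 libraries over 10%, and without the 4 libraries the MV4-11 change was -0.003 and the difference -0.86 (adjusted p = 0.00029), behind PPAN (-1.19), RRP12 (-1.10), NOP16 (-1.01), TSR1 (-0.92) and LYAR (-0.87).

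The processome genes NOL6 and NOC4L were not called in Molm-14. NOL6 (nucleolar protein 6, chr9:33461353-33473924) stood at 109.7, 114 and 118 CPM with DMSO and 113, 122 and 110.3 CPM with RMC-4550 in that line (log2 change 0.02 ± 0.081), with overlapping groups. It was not called in MV4-11 (0.15) or SKNO-1 (-0.12) either, and without the 4 libraries it again had no call in any line. NOC4L, which escorts the pre-40S particle, stood at 41.3, 44.4 and 45.0 CPM and at 33.1, 46.3 and 35.9 CPM in Molm-14, where the high treated value is the library at 15.0% mitochondrial reads. Its log2 change was -0.20 (adjusted p = 0.32), and without the 4 libraries it was -0.34 (adjusted p = 0.0069). NAT10, the acetyltransferase of small-subunit rRNA, fell in Molm-14 (-0.76, adjusted p = 0.00018). It was not called in MV4-11 (0.11) or, in the fit of all libraries, in SKNO-1 (-0.26, adjusted p = 0.15). In SKNO-1 every treated library lay below every DMSO library, and a fit of that line alone called it (adjusted p = 0.00086).

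The 4 late factors of the small subunit (BYSL, PNO1, TSR1 and RRP12) were called lower in 4 of 4 cases in both Molm-14 and SKNO-1 and in 0 of 4 in MV4-11. RRP12, an export factor, went from 87.7, 91.3 and 101 CPM to 49.8, 45.4 and 44.2 CPM in Molm-14 and from 30.8 CPM in each DMSO library to 18.7, 17.4 and 18.3 CPM in SKNO-1. In MV4-11 it was at 48.8, 55.3 and 48.8 CPM and at 46.8, 57.7 and 62.3 CPM. Both differences from MV4-11 passed the test, at -1.12 (adjusted p = 0.00012) for Molm-14 and -0.88 (adjusted p = 0.003) for SKNO-1. TSR1, a GTPase-like factor that blocks premature translation by the pre-40S subunit, had log2 changes of -1.25 in Molm-14 and -0.64 in SKNO-1, both called, and of 0.14 in MV4-11, not called (adjusted p = 0.67).

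Large-subunit factors were called lower for 17 of 17 in Molm-14 (median -0.87), 12 in SKNO-1 (median -0.56) and 2 in MV4-11 (LAS1L and NIP7, median over the 17 genes -0.04). LAS1L (chrX:65512582-65534787), which takes part in removal of the second internal transcribed spacer, was the MV4-11 call that held when each of the 6 libraries was left out (adjusted p 0.0031 to 0.012), though not in a fit of MV4-11 alone (0.11). It stood at 54.9, 57.5 and 52.5 CPM with DMSO and at 43.9, 42.8 and 40.9 CPM with RMC-4550 in MV4-11 (log2 change -0.37 ± 0.068, adjusted p = 0.0016). In Molm-14 it went from 60.0, 60.8 and 62.0 CPM to 30.9, 30.4 and 30.1 CPM (-1.0, adjusted p = 2.9e-08), and in SKNO-1 from 53.5, 56.4 and 53.1 CPM to 33.4, 30.4 and 33.4 CPM (-0.75). No replicates of the 2 treatments overlapped in any line, and the Molm-14 fall exceeded that of MV4-11 (difference -0.63, adjusted p = 0.00059).

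URB2, an early large-subunit factor, had the largest fall of the list in Molm-14. It went from 28.2, 28.1 and 30.9 CPM to 16.0, 6.92 and 12.6 CPM (log2 change -1.37 ± 0.33, adjusted p = 0.0033), with the lowest value in the library at 15.0% mitochondrial reads. Without the 4 libraries the change was -1.03, and DDX21 had the largest. GRWD1, a histone chaperone of pre-60S assembly, behaved alike, at -1.18 with all libraries and -0.75 without the 4. NOC3L, part of a heterodimer that moves with pre-60S particles, was at -1.27 and -1.0. BOP1, of the PeBoW complex, fell in Molm-14 (-0.51) and SKNO-1 (-0.53) and was at -0.12 in MV4-11.

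GNL2, a nucleolar GTPase, was the weakest large-subunit call in Molm-14 (-0.35, adjusted p = 0.029). The call was lost on leaving out any 1 of DMSO replicates 1 to 3 or RMC-4550 replicates 1 and 3, and it was -0.49 (adjusted p = 3e-05) without the 4 libraries. PPAN, a Brix-domain protein, stood at 6.41, 5.6 and 6.45 CPM and at 6.01, 5.71 and 6.62 CPM in SKNO-1, which overlap (log2 change -0.01), and was called lower in Molm-14 (-0.87, adjusted p = 0.0011). In MV4-11 it was at 0.31, and at 0.57 without the 4 libraries, where it was the 1 member called higher (adjusted p = 0.018). In GENCODE 29, 59.8% of the exon bases of PPAN are shared with P2RY11 and a read-through transcript of both, so its counts are uncertain.

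The 4 nucleolar helicases (DDX10, DDX18, DDX21 and DDX56) were called lower in 4 of 4 cases in both Molm-14 and SKNO-1 and in 1 of 4 in MV4-11. DDX21 (chr10:68956170-68985068), an RNA helicase that binds ribosomal DNA and also joins transcription by RNA polymerases I and II, was the 1 gene among the 4 largest falls of both Molm-14 and SKNO-1. In Molm-14 it went from 422, 423 and 411 CPM to 165, 185 and 163 CPM (log2 change -1.29 ± 0.1, adjusted p = 1.5e-07). In SKNO-1 it went from 143, 125 and 127 CPM to 68.7, 59.8 and 57.4 CPM (-1.09, adjusted p = 1.3e-06). In MV4-11 it went from 207, 278 and 227 CPM to 176, 192 and 172 CPM (-0.39, adjusted p = 0.02), a call that was lost without DMSO replicate 2 or without RMC-4550 replicate 3. Without the 4 libraries the MV4-11 change was -0.61 (adjusted p = 0.0003). The responses of both other lines exceeded that of MV4-11, by -0.90 for Molm-14 (adjusted p = 0.001) and -0.70 for SKNO-1 (adjusted p = 0.02).

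The difference between lines was tested for every gene. The Molm-14 response was lower than that of MV4-11 for 39 of the 55 genes, against 9.12% of all genes tested, with a median difference of -0.66, and without the 4 libraries for 43 (7.94%). The SKNO-1 response was lower than that of MV4-11 for 7 genes (NOP56, DKC1, NHP2, RRP12, NOC2L, NIP7 and DDX21), against 1.17% of all genes, and without the 4 libraries for 16 (3.66%). That count was 21 without MV4-11 DMSO replicate 2 and 3 without MV4-11 DMSO replicate 1. Between Molm-14 and SKNO-1, 4 genes fell less in SKNO-1 (RRN3, NCL, WDR12 and PPAN), against 4.14% of all genes, and 21 did without the 4 libraries (11.7%). The calls fell into 4 patterns over the lines: 8 genes were called lower in all 3 lines, 28 in both Molm-14 and SKNO-1, 16 in Molm-14 alone, and 3 (NOC4L, NOL6 and UBTF) in none. The share of all genes with each pattern was not computed, so these counts only describe the members.

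Across the 55 genes, the log2 changes in Molm-14 and SKNO-1 had a Pearson r of 0.493 and a Spearman rho of 0.505. Those in Molm-14 and MV4-11 had -0.145 and -0.19, and those in MV4-11 and SKNO-1 had 0.412 and 0.312. These values are from all libraries, and no correlation was computed without the 4 libraries. Among libraries under 10% mitochondrial reads, the largest falls in Molm-14 were of DDX21 (-1.35), LYAR (-1.34), TCOF1 (-1.16) and TSR1 (-1.14). These genes stood at -0.61, -0.47, -0.48 and -0.22 in MV4-11 (1 DMSO library). The smallest Molm-14 falls were of NOL6 (-0.02), UBTF (-0.13), NOP10 (-0.33) and NOC4L (-0.34), at 0.17, -0.03, -0.24 and -0.07 in MV4-11. The lines share no libraries, and genes of 1 library are not independent replicates, so no test is given.

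The mitochondrial share moved with these genes in MV4-11. For 23 of the 55, POLR1A, HEATR1, WDR3, TSR1, GRWD1, NCL and FBL among them, all 3 MV4-11 libraries over 10% lay below all 3 libraries under 10%, whichever the treatment (26.3% of all genes tested). For 9 (DDX56, GAR1, GNL2, LYAR, MRTO4, NOC4L, NOP16, POLR1C and RRP9) they lay above (20.6%). Within the libraries under 10% (1 DMSO and 2 treated) 52 of 55 genes had a negative log2 change, with a median of -0.21, against 56.4% negative and a median of -0.06 for all genes. Within the libraries over 10% (2 DMSO and 1 treated) 31 of 55 were negative, with a median of -0.04, near the 51.6% and -0.01 of all genes. These within-class values have no test. Many of the genes were lower with RMC-4550 in both classes. TCOF1, LAS1L, DDX21, UTP15, RRN3 and NIP7, all called in MV4-11, were among them, as were PNO1 and LYAR, which were not called. The classes hold the same libraries as the calls, so they are no separate support for them. What sets the mitochondrial share was not tested.

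**Figure D4:**
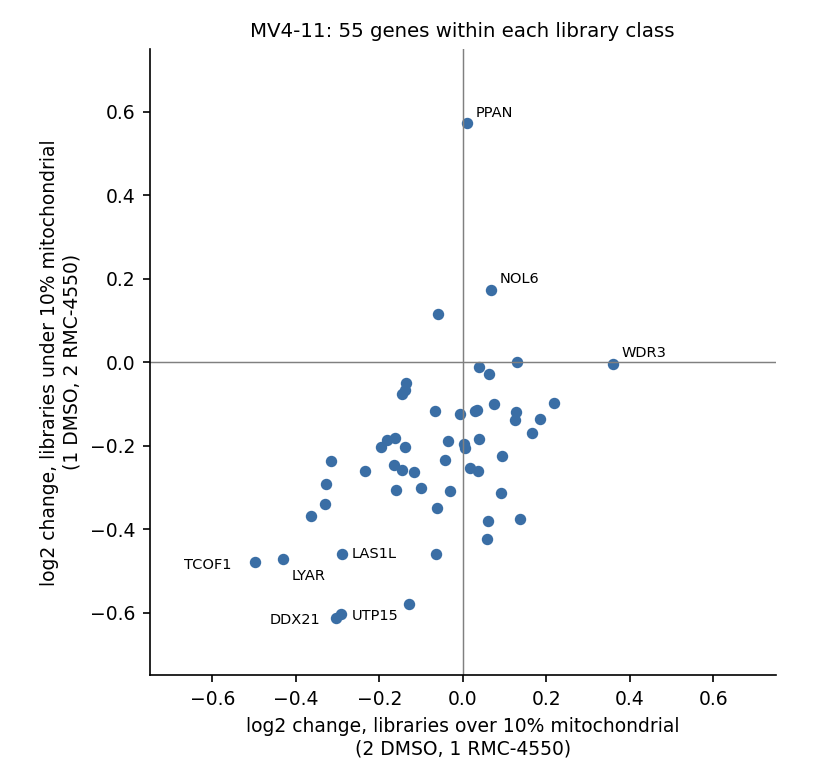
Log2 change of the 55 genes with RMC-4550 in MV4-11, within the 3 libraries over 10% mitochondrial reads (x axis) and within the 3 under 10% (y axis). Each point is a gene, and 8 of them are labelled. On the y axis 52 of 55 points lie below 0, and on the x axis 31.

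MYC, listed with its partners for comparison, was read against the same libraries. In Molm-14 it stood at 262, 269 and 275 CPM with DMSO and at 126, 34.3 and 127 CPM with RMC-4550, with the lowest value in the library at 15.0% mitochondrial reads. Its log2 change was -1.71 ± 0.44 (adjusted p = 0.0049), and -1.09 without that library. In SKNO-1 it went from 167, 163 and 154 CPM to 91.7, 87.7 and 86.9 CPM, with no overlap. The log2 change of -0.86 was not called in the fit of all libraries (adjusted p = 0.17), where the spread of MYC in the other lines enters, and was called without the 4 libraries (adjusted p = 2.6e-10) and in a fit of SKNO-1 alone (5.7e-10). In MV4-11 MYC was at 82.6, 209 and 73.6 CPM with DMSO and at 97.8, 201 and 216 CPM with RMC-4550. The 3 values under 100 CPM were the libraries over 10% mitochondrial reads, and the 3 others lay between 201 and 216 CPM in both treatments. The difference of the MYC response between Molm-14 and MV4-11 passed the test (-2.30, adjusted p = 0.019), and was -1.09 without the 4 libraries (adjusted p = 7.3e-07). Any part of MYC in the changes of the other genes was not tested.

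Other assembly genes, listed by the same role classes but not among the 56, were also lower at a higher share than all genes in SKNO-1 and Molm-14. Of 91 tested, 67 were called lower and 0 higher in Molm-14 (median -0.57), 38 lower in SKNO-1 (median -0.35) and 8 lower in MV4-11 (median -0.07). The shares of all genes called lower were 25.2%, 16.2% and 8.03%, so the MV4-11 count is near the background. In Molm-14 these were 35 of 41 large-subunit factors, 24 of 32 processome genes, 4 of 9 late small-subunit factors and 4 of 9 genes of polymerase I. BRIX1, a large-subunit factor, went from 63.5, 63.0 and 60.8 CPM to 27.3, 34.4 and 29.4 CPM in Molm-14 (-1.05) and from 29.9, 28.0 and 28.9 CPM to 15.1, 13.4 and 13.9 CPM in SKNO-1 (-1.04), and it was also called in MV4-11 (-0.59, adjusted p = 0.011), where its groups overlapped. POLR1F, a polymerase I subunit, fell by 0.75 in Molm-14, 0.50 in SKNO-1 and 0.39 in MV4-11. Of the other genes that the naming rule picked, RRP7A, NOM1, GTPBP4, TAF1D and RIOK1 fell by 0.51 to 1.17 on the log2 scale in Molm-14 and by 0.49 to 0.74 in SKNO-1. RIOK2, at -0.27 in Molm-14 and -0.34 in SKNO-1, lost both calls on leaving out single libraries. NOM1 and GTPBP4 lost their SKNO-1 calls without DMSO replicate 1 or RMC-4550 replicate 3, and NOM1 also without RMC-4550 replicate 2 (adjusted p 0.053 to 0.07). BRIX1 lost its MV4-11 call without DMSO replicate 1 or 3 or RMC-4550 replicate 2 or 3 (adjusted p 0.052 to 0.066).

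The structural proteins of the ribosome did not share this. Of 78 cytosolic ribosomal protein genes, 2 were called lower and 3 higher in Molm-14 and 0 in either direction in MV4-11 and SKNO-1, with medians of 0.12, -0.07 and 0.02. The signs in MV4-11 and SKNO-1 flipped with quantile normalization (0.01 and -0.02). In Molm-14 29 of the 78 were called higher and 3 lower without the 4 libraries, where 26.6% of all genes were called higher. With quantile normalization and all libraries, 0 were called higher and 3 lower in that line. Genes of RNA polymerase III, which makes 5S rRNA and transfer RNA, were called lower for 8 of 15 in Molm-14 and higher for 1. They were called lower for 5 in SKNO-1 and for 1 in MV4-11. The medians were -0.52, -0.39 and -0.002 in this order. The shares of all genes called lower were 25.2%, 16.2% and 8.03%, so the MV4-11 count is near the background. POLR3G went from 24.3, 24.5 and 22.7 CPM to 9.84, 13.8 and 9.67 CPM in Molm-14 and fell by 0.91 in SKNO-1, and POLR3E fell by 1.24 and 0.84. POLR3G was also the MV4-11 call (-0.54). That call was lost with no filter, with median-ratio scaling and in a fit of MV4-11 alone. It was also lost without DMSO replicate 1 or 3 or RMC-4550 replicate 2 or 3. Of 11 genes tested in the MYC network, 2 were called lower and 3 higher in Molm-14, against 25.2% and 21.5% of all genes. In SKNO-1 the counts were 2 lower and 0 higher (16.2% and 10.8% of all genes). In MV4-11 they were 0 lower and 1 higher (8.03% and 5.85%). With so few genes these counts only describe the list. MXD1, a MAX partner that represses, was lower by the test at -0.29 in Molm-14 and at -0.44 in SKNO-1. The Molm-14 call was lost on leaving out single libraries. In MV4-11 MXD1 was not called in the main limma fit, but was with the mitochondrial covariate (-0.40, adjusted p = 3e-05). MLXIP, a glucose-sensing partner of MLX, was called higher in Molm-14 (0.89) and MV4-11 (0.49).

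**Figure D5:**
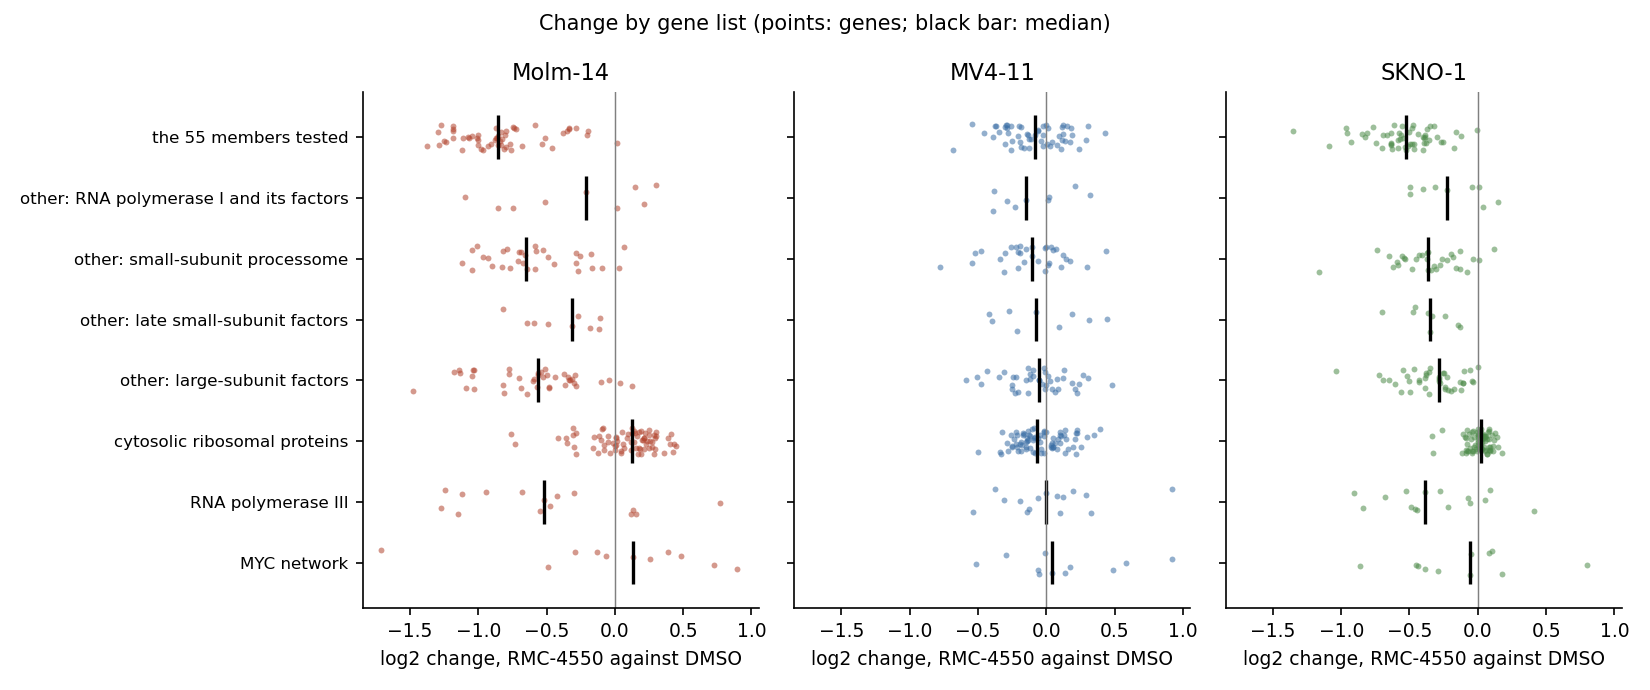
Log2 change with RMC-4550 (x axis) of each gene in the lists (y axis), by line. Points are genes and black bars are medians. In Molm-14 the median is -0.86 for the 55 genes and 0.12 for the cytosolic ribosomal proteins, and in MV4-11 the medians of both lie within 0.1 of 0.

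Because MYC and its partner MAX bind the E-box CACGTG, a palindrome, RefSeq promoter sequences (GRCh38.p14, 250 bases before to 50 bases after each start) were searched for it. Of the 56 genes, 46 had an entry, with 56 start sites. In the 250 bases before the start, 12.5% of these starts held an E-box, against 8.21% of starts of all genes in the fit. Over the whole 300 bases the shares were 39.3% and 9.25%. The windows differ by motifs that reach past the start: 26.8% of the starts had an E-box only there, against 1.04%. By gene, 21 of 46 had an E-box in the 300 bases (45.7%, against 12.4%). The ETS-type motif CCGGAAGT, searched on both strands before the start, was in 25% of the starts against 5.99%, and the GC box GGGCGG in 62.5% against 61.6%. A match is a description of the letters and shows no binding.

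The sites below are from members whose values are given above or that carry the motif at the start. Each is written 5′ to 3′ on the gene's strand, with the E-box in capitals and its first base counted from the start site (1 is the first transcribed base). DDX21 and GNL3 have more than 1 start in the promoter sequences. Their sites are counted from a start that lies inside the gene, not from its outermost start.
FBL (chr19:39846356-39846385, minus strand, first base at 7): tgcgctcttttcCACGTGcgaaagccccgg
NOC3L (chr10:94362903-94362932, minus strand, first base at 20): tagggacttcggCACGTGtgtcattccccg
GNL3 (chr3:52686026-52686055, plus strand, first base at 7): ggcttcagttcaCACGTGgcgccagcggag
WDR43 (chr2:28894658-28894687, plus strand, first base at 4): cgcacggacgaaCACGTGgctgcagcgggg
NOL6 (chr9:33473894-33473923, minus strand, first base at 14): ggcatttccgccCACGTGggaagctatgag
NOP10 (chr15:34343130-34343159, minus strand, first base at -11): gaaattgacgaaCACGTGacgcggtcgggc
NAT10 (chr11:34105602-34105631, plus strand, first base at -15): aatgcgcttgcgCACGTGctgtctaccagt
DDX21 (chr10:68956604-68956633, plus strand, first base at -31): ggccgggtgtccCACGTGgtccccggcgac

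Genes with and without the motif had responses of similar size, given here as counts with no test. The 20 tested genes with an E-box had a median log2 change of -0.84 in Molm-14 (19 called lower), -0.48 in SKNO-1 (12) and -0.10 in MV4-11 (2). The 25 without one had medians of -0.88 (23 called lower), -0.51 (16) and -0.14 (5) in the same order. Among genes with an E-box, DDX21 and NOP10 were called in all 3 lines, and NOL6, with the motif just past its start, in none. Among those without one in this window, LAS1L was called in all 3 lines and UBTF in none. These calls are from the fit of all libraries, and any part of the motif in the changes was not tested. TCOF1 had no entry.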

How the data were processed

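Polyadenylated RNA of 18 cultures was sequenced, and the submitters' processing notes name FastQC, STAR, limma and GRCh38, with no versions or roles. The authors deposited log2 values per Ensembl gene. From the values, they are log2 of reads plus 0.5 per 1e6 of a scaled library total, and whole reads were recovered from them. Levels in CPM are these reads per 1e6 of the same total. A gene was tested in a line where 3 or more of its libraries reached 1 CPM, with 16262 genes in the fit. The log2 values were fitted with limma 3.58.1 (R 4.3.3, empirical Bayes with trend) over 18 samples in 6 groups. Benjamini-Hochberg adjustment ran over all genes tested in a contrast, with calls at 0.05. Alternatives were other filters, scalings and fits, a mitochondrial covariate, and left-out libraries. The script was tested on simulated data.

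Named genes were the most abundant member of each of 7 role classes, the members called in MV4-11, the 4 largest falls in Molm-14 and SKNO-1, the 4 largest differences from MV4-11 in each, members not called lower in Molm-14 or SKNO-1 (up to 6 each), from each other list up to 2 called falls and 2 called MV4-11 rises at 5 CPM or more, and MYC. Members, lists and rules were chosen with earlier results of these data known. Gene overlaps are from GENCODE 29 (GRCh38), and gene positions and promoters from RefSeq (GRCh38.p14). One marker gene is not reported here.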

Additional observations from a re-analysis of the deposited data

Results flagged for a closer look

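These results are listed because the response to RMC-4550 differed between lines by a test of the difference itself. The response in Molm-14 was lower than in MV4-11 for 39 of the 55 genes, the response in SKNO-1 was lower than in MV4-11 for 7, and the response in SKNO-1 was higher than in Molm-14 for 4. Among single genes, the difference between Molm-14 and MV4-11 in log2 change was -1.61 for WDR3, -1.55 for URB2, -1.42 for GRWD1 and -1.39 for TSR1, and that between SKNO-1 and MV4-11 was -0.88 for RRP12. For WDR3, URB2, GRWD1 and TSR1 the MV4-11 libraries over 10% mitochondrial reads all lay below those under 10%, and without the 4 libraries the differences were -0.86, -0.61, -0.63 and -0.92 in this order, all still called. That of RRP12 was again -0.88.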

How the results depend on the processing

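The count of genes called lower in MV4-11 (8) was 2 with no filter on low values, 5 with median-ratio scaling, 5 with quantile normalization, 1 with a separate fit per line, 19 with a mitochondrial covariate and 15 without the 4 libraries, where 1 was called higher. SKNO-1 against MV4-11 gave 2, 26 and 16 lower responses with no filter, the covariate and without the 4 libraries, and SKNO-1 against Molm-14 gave 2, 19 and 21 higher. With the covariate and a separate fit, 53 and 53 genes were lower in SKNO-1. With DMSO, SKNO-1 against MV4-11 gave 31 lower with the covariate and 1 higher without the 4 libraries. Its median difference (-0.12) ran from -0.18 without MV4-11 DMSO replicate 3 to 0.0038, reversed, without MV4-11 DMSO replicate 2. The E-box share was 39.3% over all 300 bases. Leaving out 1 library gave 50 to 52 lower in Molm-14, 2 to 9 lower and 0 to 3 higher in MV4-11, and 34 to 37 lower in SKNO-1. Differences between lines ranged from 32 to 41 (Molm-14 against MV4-11), 3 to 21 (SKNO-1 against MV4-11) and 2 to 5 (SKNO-1 against Molm-14), and those with DMSO from 33 to 41, 16 to 19 lower with 2 to 13 higher, and 38 to 42. With the replicate number as a block, 51 genes were lower in Molm-14, 42 in SKNO-1 and 7 in MV4-11. Same-numbered libraries were not alike throughout. Of 9 same-numbered pairs, 3 correlated over 0.1 (r from -0.4 to 0.59), and 6 of 18 libraries were closest to their own number. Both ends of that range were pairs of MV4-11. The labels do not say whether same-numbered libraries share a batch, and with 3 libraries per group this check cannot decide it. Where a cause is not given by the setting itself, the cause was not tested. Over all 14739 genes tested in MV4-11, 1183 were called lower in the main fit, 944 with median-ratio scaling and 1116 with quantile normalization. Shares of all genes for the fit without the 4 libraries are given above. The other settings have no such share beside them, so whether their counts follow the calls over all genes was not tested. Of 663 values of named genes per line, 635 in Molm-14, 607 in SKNO-1 and 567 in MV4-11 stayed on the same side of the threshold, called or not, and no called value reversed.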
